A study of Mus musculus with 4 samples.

Results

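The 10 genes described here are listed immediate early genes, the Fos and Jun family members of activator protein 1 (AP-1) and 4 further early genes: *Fos*, *Fosb*, *Fosl2*, *Jun*, *Junb*, *Jund*, *Egr1*, *Nr4a1*, *Ier2* and *Dusp1*. They were listed by name and are 10 of the 21951 protein-coding genes of the annotation. The data are RNA polymerase II (Pol II) ChIP-seq peak lists of purified mouse brain endothelial cells (ECs), with 4 libraries. Pol II ChIP-seq sequences the DNA fragments that an antibody against Pol II pulls down, so a peak marks a place where more such fragments piled up than in the DNA around it. For each gene, peaks were taken in 3 zones: the promoter (within 1500 bp of any annotated transcription start site, TSS), the gene body outside those windows, and the 5 kb after the gene end. The height of a peak is its pileup, the number of fragments covering its summit, given as fragments per 1000000 fragments of its library (FPM).

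There were 2 groups of 2 libraries, and those of the old WT Cre mice, replicates 1 and 2, are called old WT 1 and old WT 2 here, and those of the young EC-K4KO mice young KO 1 and young KO 2. The old WT Cre mice were labelled CdH5CRE and old: they carry the endothelial VE-cadherin (*Cdh5*) Cre driver without floxed *Klf4*, the gene of Krüppel-like factor 4. The young EC-K4KO mice were labelled ECK4KO and young: the same driver removes floxed *Klf4* in ECs after tamoxifen, which was given to Cre controls as well. Both are on the C57BL/6J background, both sexes were used in the study, and the labels do not say whether the libraries of a group came from separate animals. Genotype and age changed together between the groups and cannot be told apart. With 2 libraries against 2, an exact permutation test allows no p below 0.3333, so the groups are compared by presence, position and height of peaks.

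Immediate early genes are transcribed within minutes of a stimulus, with no need for new protein synthesis. Many hold Pol II that has started transcription and is paused a short way downstream of the TSS, and release of this paused Pol II is a main step in their induction. In brain endothelium they respond to blood flow, cytokines and growth factors. Fos and Jun proteins pair to form AP-1, which binds DNA at the sequence TGANTCA.

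The libraries were of unequal depth and yield. Fragment totals from the peak caller were 65734178 in old WT 1, 27455452 in old WT 2, 35227929 in young KO 1 and 22705175 in young KO 2. Young KO 2, the shallowest, held the most peaks, 235591, while the other 3 held between 35638 and 78851. A single tallest stack of fragments took 14.6%, 15.3%, 3.36% and 1.73% of the 4 libraries in that order. The smallest pileup called anywhere was 13, 8, 9 and 7 fragments, or 0.198, 0.291, 0.256 and 0.308 FPM, and local background raises this limit in places. Of 14 endothelial marker genes, 5, 6, 0 and 8 had a promoter peak in old WT 1, old WT 2, young KO 1 and young KO 2 (35.7%, 42.9%, 0% and 57.1%), where the shares of all protein-coding genes were 25.6%, 24.5%, 10.6% and 67.5%. Endothelial markers were thus above the share of all genes in both old WT libraries and below it in both young KO libraries. *Cdh5* had one in all but young KO 1, and *Pecam1*, *Tek*, *Tie1*, *Esam* and *Slco1a4* had none in any library. Of 29 markers of neurons, astrocytes, microglia, oligodendrocytes and mural cells, 8, 4, 4 and 20 had a promoter peak in the same order (27.6%, 13.8%, 13.8% and 69%), and the part of other cells in the values below was not tested.

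A Pol II promoter peak was called at 6 of the 10 genes in old WT 1 (*Fos*, *Fosl2*, *Jun*, *Junb*, *Jund* and *Dusp1*), where 25.6% of all protein-coding genes had one. Old WT 2 had a promoter peak at 1 of the 10, *Jun*, against 24.5% of all genes. Young KO 1 also had 1, *Fosb*, against 10.6% of all genes. Young KO 2 had a promoter peak at all 10, against 67.5% of all genes. With each list cut to its strongest 35638 peaks, young KO 2 kept 6 of the 10 (*Fos*, *Fosb*, *Fosl2*, *Jund*, *Egr1* and *Dusp1*) against 27.7% of all genes, and old WT 1 kept *Jun* alone against 11.8%. In the full lists the 10 genes stood above the background share in 1 library of each group, below it in old WT 2 and near it in young KO 1. *Jun* was the 1 gene of the 10 with a promoter peak in both old WT libraries, where 10.1% of all genes had one in both. *Fosb* was the 1 gene with a promoter peak in both young KO libraries, where 9.14% of all genes did. None of the 10 had a promoter peak in all 4 libraries, against 2.22% of all genes, so no difference in height between the groups could be tested at any of them. With a peak in any of the 3 zones counted, the 10 genes gave 8, 5, 2 and 10 in the 4 libraries in the order above, against 63.2%, 50.7%, 36.2% and 90.1% of all genes.

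**Figure D1:**
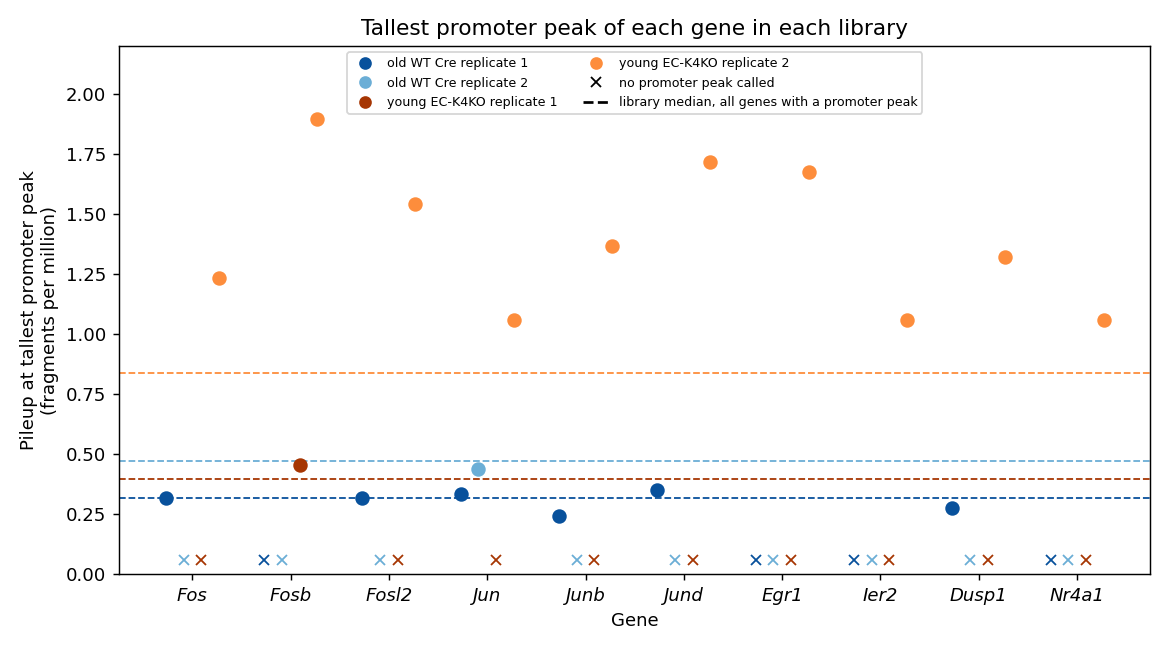
Height of the tallest promoter peak of each of the 10 genes (FPM, linear axis) in the 4 libraries, with crosses where no promoter peak was called (drawn near the base with no value) and dashed lines at each library's median over all genes with a promoter peak. All 10 points of young KO 2 lie between 1.06 and 1.89, above that library's median of 0.837, and the 6 points of old WT 1 lie between 0.243 and 0.350.

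Heights within a library were read against all protein-coding genes with a promoter peak in that library. The 10 genes in young KO 2 ran from 1.06 to 1.89 FPM, with a median of 1.34, and all 10 lay above the median of the 14822 genes (0.837). Their median percentile was 91.9. The 6 genes in old WT 1 ran from 0.243 to 0.350 with a median of 0.320, the same as the median of the 5621 genes, and 2 of the 6 lay above it. Over all genes with a promoter peak the middle of the range was 0.274 to 0.380 FPM in old WT 1 and 0.661 to 1.06 FPM in young KO 2 (25th to 75th percentile), so heights differed between these libraries over all such genes as well. Old WT 2 and young KO 1 gave 1 value each, 0.437 FPM at *Jun* and 0.454 FPM at *Fosb*.

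The promoters of 8 of the 10 genes were matched in the RefSeq promoter table (GRCm38.p6, 250 bases before to 50 after the RefSeq TSS), and *Egr1* and *Ier2* were not. Those of *Fosb*, *Junb* and *Dusp1* are shown because a Pol II peak overlapped these 300 bases, and that of *Fos* as the founding member, whose peaks lay elsewhere. Capital letters mark matches, on either strand, to the cyclic AMP response element TGACGTCA (CRE), its core TGACG, or the TATA box TATAAA. The positions are *Fos* chr12:85473640-85473939 on the plus strand, *Fosb* chr7:19309996-19310295, *Junb* chr8:84978699-84978998 and *Dusp1* chr17:26508423-26508722, the last 3 on the minus strand.
Fos: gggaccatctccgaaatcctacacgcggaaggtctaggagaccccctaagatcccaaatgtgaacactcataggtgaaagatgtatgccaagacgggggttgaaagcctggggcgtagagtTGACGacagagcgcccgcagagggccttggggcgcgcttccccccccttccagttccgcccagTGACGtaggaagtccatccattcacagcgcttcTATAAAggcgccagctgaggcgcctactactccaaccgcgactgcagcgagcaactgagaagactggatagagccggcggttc
Fosb: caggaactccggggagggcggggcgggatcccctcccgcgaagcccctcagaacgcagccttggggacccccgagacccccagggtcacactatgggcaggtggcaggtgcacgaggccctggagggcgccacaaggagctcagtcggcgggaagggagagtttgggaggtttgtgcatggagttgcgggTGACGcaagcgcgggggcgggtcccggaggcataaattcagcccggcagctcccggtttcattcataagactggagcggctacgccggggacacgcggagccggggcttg
Junb: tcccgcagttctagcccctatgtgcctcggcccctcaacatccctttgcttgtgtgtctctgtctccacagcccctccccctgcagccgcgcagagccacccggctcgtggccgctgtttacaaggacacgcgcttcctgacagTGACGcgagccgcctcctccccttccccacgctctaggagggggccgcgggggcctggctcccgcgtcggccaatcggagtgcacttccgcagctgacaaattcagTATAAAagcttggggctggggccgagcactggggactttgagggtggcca
Dusp1: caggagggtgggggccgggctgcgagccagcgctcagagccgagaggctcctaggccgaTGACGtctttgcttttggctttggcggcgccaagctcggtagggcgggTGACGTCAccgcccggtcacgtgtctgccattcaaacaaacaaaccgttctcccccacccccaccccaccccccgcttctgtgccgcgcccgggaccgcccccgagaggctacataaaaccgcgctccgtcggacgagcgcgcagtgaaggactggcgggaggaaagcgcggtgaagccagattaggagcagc

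The CRE core site, the motif of CREB-type activators, was in 5 of the 8 promoters (*Fos*, *Fosb*, *Junb*, *Dusp1* and *Nr4a1*), against 20.8% of 32841 RefSeq promoters of the same length. The full CRE, which contains the core site, was in 1 of the 8 (*Dusp1*, 143 bases before the TSS), against 1.79%. The TATA box was in *Fos*, 33 bases before the TSS, and in *Junb*, starting at the RefSeq TSS itself, against 13.6%. That RefSeq TSS of *Junb* is 30 bp upstream of the TSS used for the peaks. The Sp motif GGGCGG was in 6 of the 8, against 35.7%, and the KLF motif CCACCC in 3 of the 8 (*Jun*, *Junb* and *Dusp1*), against 31.5%. The AP-1 site TGANTCA and the CArG box, the site of serum response factor, were in 0 of the 8, against 7.81% and 1.63%. All motifs were searched on both strands, and no match says only that these letters are not in this window. *Egr1* and *Ier2* were not searched. Median GC content of the 8 was 65%, against 52.7% over the table. Of the CRE core sites, that of *Fosb*, 60 bases before the TSS, lay under the peak of young KO 1, and that of *Junb*, 106 bases before it, under a peak of young KO 2. Those of *Fos*, *Dusp1* and *Nr4a1* lay under no peak in any library.

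The Fos family supplies the AP-1 subunits that bind DNA only when paired with a Jun protein. *Fos* (ENSMUSG00000021250.13, GRCm38 chromosome 12, 85473890 to 85477273, plus strand) is the classical stimulus-induced member. Its promoter pileup was 21 fragments in old WT 1 (0.320 FPM) and 28 in young KO 2 (1.23 FPM), with no promoter peak in the other 2 libraries. The peak of old WT 1 lay 1344 bp upstream of the TSS, and that of young KO 2 lay 347 bp downstream, in an intron, so they mark different places. *Fos* had no peak in its body or in the 5 kb after it in any library.

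*Fosb* (ENSMUSG00000003545.3, chromosome 7, 19302696 to 19310051, minus strand) encodes a further stimulus-induced AP-1 subunit. Its promoter pileup was 16 fragments in young KO 1 (0.454 FPM, 68.9th percentile) and 43 in young KO 2 (1.89 FPM, 99.1st percentile), with no promoter peak in either old WT library. Both summits were upstream of the nearest annotated TSS, at 132 and 347 bp, and the peaks overlapped. *Fosb* was the tallest of the 10 genes in both young KO libraries, and in the first of them it was the only one. The replicate 1 peak was among the weakest of that library, with a fold enrichment of 3.05 (1.60th percentile) and a −log10 q of 2.80, and at a q of at most 1e-05 none of the 10 had a promoter peak in both young KO libraries. A second promoter peak of young KO 2, of 31 fragments, had its summit 866 bp downstream of another TSS of the gene, an internal one.

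*Fosl2* (ENSMUSG00000029135.10, chromosome 5, 32135801 to 32157842, plus strand) encodes Fra-2, a Fos relative with slower and longer-lasting expression. Its promoter pileup was 21 fragments in old WT 1 (0.320 FPM) and 35 in young KO 2 (1.54 FPM), with no promoter peak in the other 2. Both summits were in the 5′ UTR, 325 and 226 bp downstream of the TSS, and the peaks overlapped. The RefSeq TSS of *Fosl2* lies 671 bp further downstream, so both peaks are upstream of it in that annotation. *Fosl2* had the highest fold enrichment of any peak near the 10 genes, 6.73.

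The Jun family can form AP-1 among themselves or with Fos proteins. *Jun* (ENSMUSG00000052684.4, chromosome 4, 95049034 to 95052222, minus strand) is its stress-responsive prototype and a single-exon gene. Its promoter pileup was 22 fragments in old WT 1 (0.335 FPM), 12 in old WT 2 (0.437 FPM) and 24 in young KO 2 (1.06 FPM), with none in young KO 1. *Jun* had a promoter peak in 3 libraries, more than any other of the 10. The summits lay at 1359, 897 and 223 bp downstream of the TSS, and no 2 of these peaks overlapped. The peaks of the old WT libraries were in the coding part and the 5′ UTR, away from the TSS, while that of young KO 2 was closest to it. A further peak of young KO 2 lay 771 bp upstream, with 22 fragments.

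*Junb* (ENSMUSG00000052837.6, chromosome 8, 84976910 to 84978718, minus strand) encodes a Jun protein that often tempers Jun activity. Its promoter pileup was 16 fragments in old WT 1 (0.243 FPM, 8.3rd percentile) and 31 in young KO 2 (1.36 FPM, 92.7th percentile), with no promoter peak in the other 2. The old WT peak only reached into the promoter window from the 3′ UTR, with its summit 1607 bp downstream of the TSS. In young KO 2, a peak of 30 fragments covered the TSS, with its summit 169 bp upstream, and the peak of 31 fragments lay 831 bp downstream in the coding exon. *Junb* was one of 3 genes of the 10 with a TSS base that was under a peak in that library.

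*Jund* (ENSMUSG00000071076.6, chromosome 8, 70698949 to 70700616, plus strand) encodes the more constantly expressed Jun protein. Its promoter pileup was 23 fragments in old WT 1 (0.350 FPM) and 39 in young KO 2 (1.72 FPM, 98.4th percentile), with none in the other 2 libraries. The summits were 398 and 117 bp downstream of the annotated TSS, in the coding exon, and the peaks overlapped. *Jund* had the tallest promoter peak of the 10 in old WT 1 and the next tallest after *Fosb* in young KO 2. The RefSeq TSS of *Jund* is 1210 bp upstream of the one used here, and both peaks are also within 1500 bp of a TSS of *Gm11175*, so they cannot be given to *Jund* alone.

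Outside AP-1, *Egr1* (ENSMUSG00000038418.7, chromosome 18, 34859823 to 34864984, plus strand) encodes a zinc finger activator induced by growth factors and shear stress. It had a promoter peak in young KO 2 alone, of 38 fragments (1.67 FPM, 98th percentile), 296 bp downstream of the nearest TSS in a coding exon. A second peak of that library, of 22 fragments, lay 553 bp upstream of the same TSS. In old WT 2 the 1 *Egr1* peak was in the gene body, in a coding exon, with 11 fragments (0.401 FPM).

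*Nr4a1* (ENSMUSG00000023034.7, chromosome 15, 101254269 to 101274795, plus strand) encodes the orphan nuclear receptor Nur77. It had a promoter peak in young KO 2 alone, of 24 fragments (1.06 FPM, 74.9th percentile), 407 bp upstream of its internal TSS. Gene body peaks were called in 3 libraries, all in introns, with 33 fragments in old WT 1 (0.502 FPM), 17 in old WT 2 (0.619 FPM) and 24 in young KO 2 (1.06 FPM). These body peaks lay at 3 different places. The *Nr4a1* promoter peak had the lowest fold enrichment of the 10 in young KO 2, 3.84 (9.33rd percentile).

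*Ier2* (ENSMUSG00000053560.4, chromosome 8, 84661331 to 84662852, minus strand) encodes a small nuclear protein of the early response. It had peaks in young KO 2 alone, of 24 fragments (1.06 FPM) 1092 bp downstream of the TSS in the 3′ UTR and of 23 fragments 318 bp downstream in the coding exon. *Jun*, *Ier2* and *Nr4a1*, each with 24 fragments, were the lowest of the 10 in that library, and at the 74.9th percentile they were still above its median.

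*Dusp1* (ENSMUSG00000024190.7, chromosome 17, 26505590 to 26562128, minus strand) encodes a phosphatase that switches off MAP kinases and so ends the signal that induces these genes. The annotation gives it a length of 56539 bp because of 1 long transcript, whereas RefSeq starts it at 26508472, with nearly the same gene end. At the near TSS, the promoter pileup was 18 fragments in old WT 1 (0.274 FPM, 21.4th percentile), with the summit 351 bp downstream. There, young KO 2 had peaks of 29 fragments (1.28 FPM) 191 bp downstream and of 28 fragments (1.23 FPM) 274 bp upstream, the first of which overlapped the old WT peak. Its tallest peak, of 30 fragments (1.32 FPM), was at the distant start of the long transcript, within 1500 bp of a TSS of *Ergic1* too. Old WT 2 and young KO 1 had no *Dusp1* promoter peak.

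Where a gene had a promoter peak in 2 libraries, the peaks did not always coincide. *Fosb* was the 1 gene with peaks in both young KO libraries, and those overlapped, as they did for 66.6% of all genes with a promoter peak in both. *Jun* was the 1 gene with peaks in both old WT libraries, and those did not overlap, against 60.4% of all such genes that did. Between old WT 1 and young KO 2 the peaks of *Fosl2*, *Jund* and *Dusp1* overlapped, 3 of 6, against 64.6% of all such genes. Between old WT 2 and young KO 2 the peaks of *Jun* did not overlap, against 74.6% that did.

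**Figure D2:**
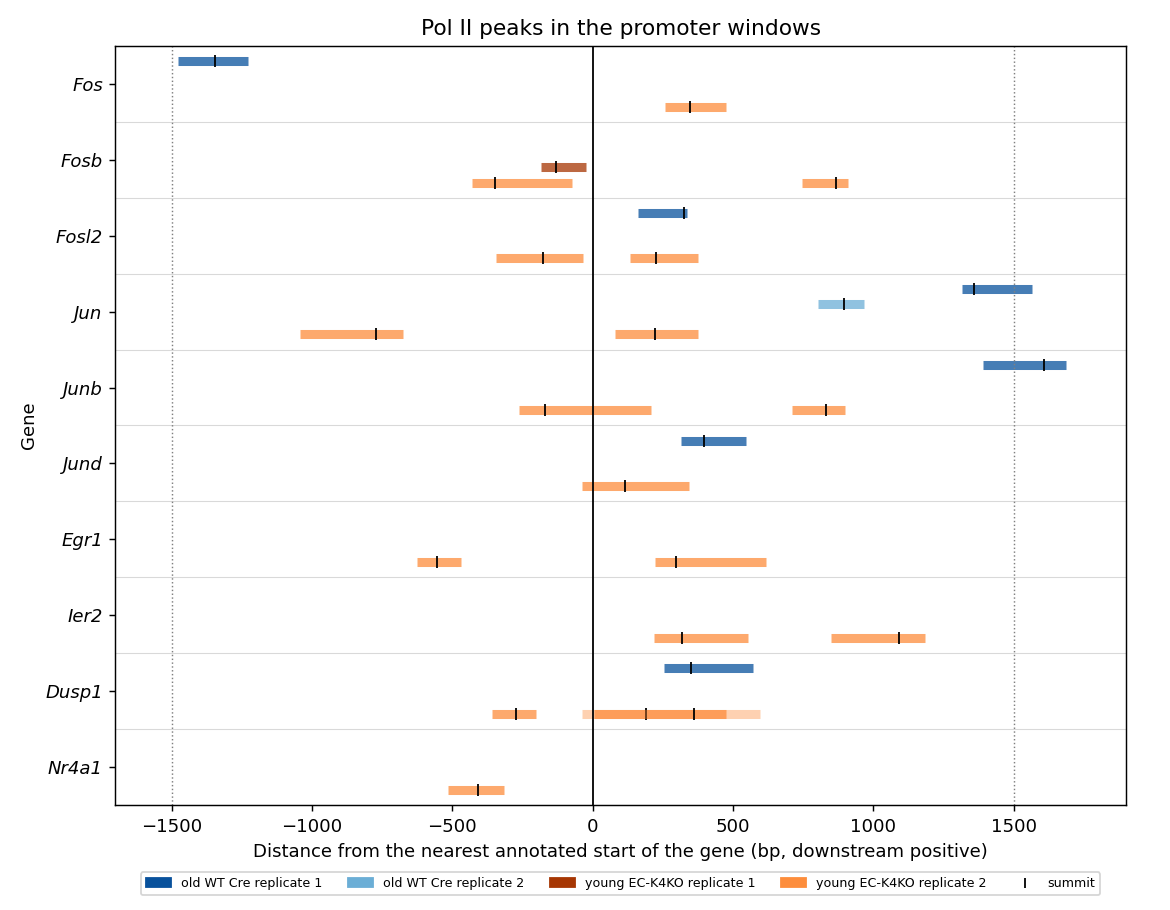
Promoter peaks of the 10 genes in the 4 libraries, drawn as bars to scale by distance from the nearest annotated TSS of the gene (bp, downstream to the right), with a tick at each summit and dotted lines 1500 bp either side. In young KO 2 a TSS lies under a peak at *Junb*, *Jund* and *Dusp1*, for *Dusp1* at its distant start alone, whose peak is the pale bar drawn from that start.

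Around the TSS the peaks of young KO 2 tended to flank the start. Its 10 genes held 18 promoter peaks, and 7 of the 10 had 2 or more promoter peaks, against 36.9% of all genes with a promoter peak in that library. Summits lay on both sides of a TSS at 6 of the 10 (*Fosb*, *Fosl2*, *Jun*, *Junb*, *Egr1* and *Dusp1*), against 21.6% of all such genes. A TSS base was under a peak at 3 of the 10, against 43.5%, and at *Dusp1* this was the distant start alone. The tallest summit was within 400 bp of a TSS at 7 of the 10, against 61.1%, and its median position was 261 bp downstream, against 96 bp. In old WT 1, 3 of the 6 tallest summits were within 400 bp, against 52.4%, and their median was 374.5 bp downstream, against 137 bp. The lists hold no strand and no initiation mark, so they do not separate paused from initiating Pol II.

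The height of these peaks and their enrichment over the surrounding DNA ranked differently. Fold enrichment is the peak caller's ratio of pileup to background, each with 1 fragment added, where the background is the larger of the genome average and the average over 10000 bp around the peak. The regional background below is that background, with the added fragment taken off, over the genome average. In young KO 2 all 10 genes were above the library median in regional background, from 2.93 times the genome average at *Jun* to 4.80 times at *Junb*, with a median of 3.80 against 1.72 over all genes with a promoter peak. Their fold enrichments had a median of 5.68 against 5.80, and 4 of the 10 (*Fosb*, *Fosl2*, *Egr1* and *Dusp1*) were above the library median. The *Dusp1* value is that of the peak at its distant start, and its peaks at the near TSS, at 5.06 and 4.79, were below the median. So the tall pileups of the 10 genes stood in neighbourhoods that were themselves high in fragments, and their peaks were of middling enrichment. Regional background is worked out from pileup and fold enrichment, so it is not a separate measurement. Its 10000 bp also include the fragments of the gene's own peaks. The old WT 1 peaks had a median fold enrichment of 3.17 against 3.94, with *Jun* alone of the 6 above the library median, and a median regional background of 1.20 times the genome average against 1. *Fosb* in young KO 1 had a regional background of 2.14 times (94.1st percentile) against 1.07. No control library was used in the calling, so a part of the regional background that is not Pol II cannot be told apart.

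**Figure D3:**
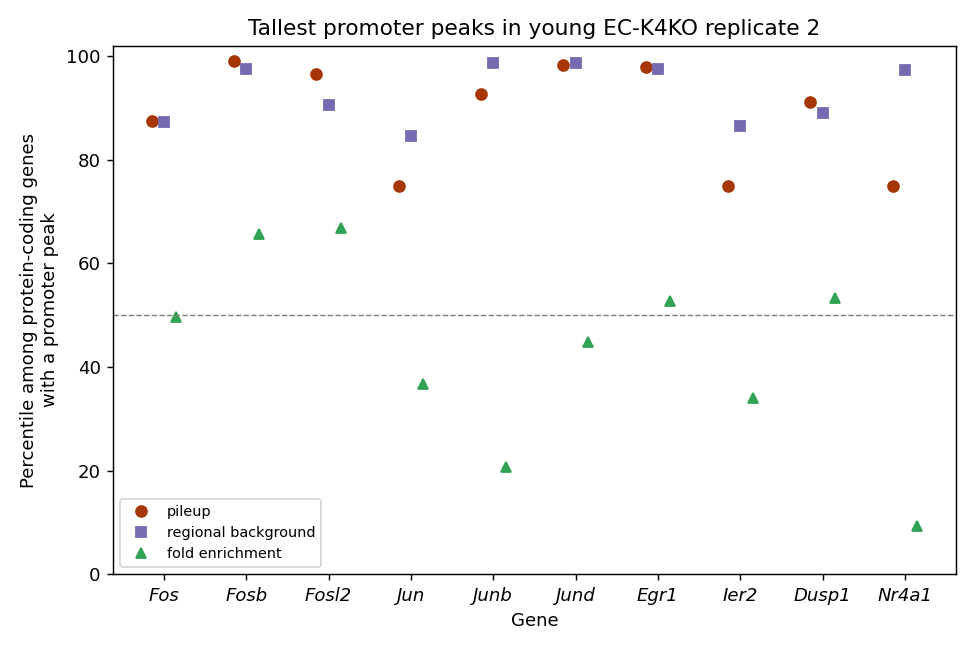
Percentile of the tallest promoter peak of each of the 10 genes in young KO 2, among all 14822 protein-coding genes with a promoter peak there, for pileup (circles), regional background (squares) and fold enrichment (triangles), with a dashed line at the median. Pileup and regional background lie at or above the 74.9th percentile at every gene, while fold enrichment runs from 9.33 at *Nr4a1* to 66.9 at *Fosl2*.

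In the gene bodies, peaks were called at 4, 3, 1 and 5 of the 10 genes in old WT 1, old WT 2, young KO 1 and young KO 2, against 45.8%, 32%, 25.2% and 68% of all genes. These shares were near or below the background in every library, and 5 of the 10 genes leave little body outside the promoter windows, from 21 bp at *Ier2* to 1883 bp at *Fos*. *Dusp1*, with its long transcript, was the 1 gene with a body peak in all 4 libraries, but its body peaks in old WT 1, old WT 2 and young KO 1 all lie outside the shorter RefSeq gene, which leaves young KO 2 alone with one. All 6 body peaks of old WT 1 were in introns. Of the 13 body peaks of young KO 2, 5 were in a 3′ UTR, 2 in a coding exon and 6 in introns. *Fosl2* held 5 of them, of 13 to 22 fragments, among them a pair in its 3′ UTR. *Fosb* held a pair, of 35 fragments (1.54 FPM) in a coding exon, 4673 bp downstream of its internal TSS, and of 22 in the 3′ UTR.

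After the gene end, where Pol II slows before it leaves the template, peaks were called at 0, 1, 0 and 5 of the 10 genes in the same order, against 17.6%, 9.47%, 6.32% and 46.1% of all genes. *Junb* was the 1 gene with such a peak in both groups, of 13 fragments (0.473 FPM) 452 bp past the end in old WT 2 and of 24 fragments (1.06 FPM) 656 bp past it in young KO 2, and these peaks overlapped. In young KO 2 the others were at *Jund* 429 bp past the end, *Nr4a1* 3821 bp, *Jun* 4173 bp and *Fosb* 4874 bp. The shares were close to the background in replicate 2 of each group and 0 in replicate 1, and the *Jund* peak is also within 1500 bp of a TSS of *Gm11175*. Over all zones and libraries the 10 genes held 56 peaks, 26 in promoters, 24 in bodies and 6 after the end, and 8 of the 56 were within 1500 bp of a TSS of another gene.

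Further genes of the same response were described from 4 lists. Of 30 other immediate early genes, 13, 13, 4 and 30 had a promoter peak in old WT 1, old WT 2, young KO 1 and young KO 2 (43.3%, 43.3%, 13.3% and 100%), where the shares of all genes were 25.6%, 24.5%, 10.6% and 67.5%. The 10 genes and these 30 thus differed most in old WT 2, with 1 of 10 (10%) and 13 of 30 (43.3%), and in young KO 2 all members of both lists had a peak. Of 11 other AP-1 and bZIP partners, such as *Atf3* and *Jdp2*, the counts were 5, 4, 2 and 8 (45.5%, 36.4%, 18.2% and 72.7%). Of 23 upstream kinases and factors they were 5, 6, 2 and 20 (21.7%, 26.1%, 8.70% and 87.0%), near the shares of all genes but for young KO 2, and *Srf* had none in any library. Of 14 factors that set or release the Pol II pause, such as the NELF subunits and *Cdk9*, they were 3, 8, 2 and 13 (21.4%, 57.1%, 14.3% and 92.9%). The median percentile of height in young KO 2 was 74.9, 78.8, 68.3 and 74.9 for these 4 lists, against 91.9 for the 10 genes. In old WT 1 it was 55.8, 55.8, 62.9 and 62.9 against 47.9 for the 6 genes with a peak, and in old WT 2 it was 44.1, 62.5, 37.3 and 67.8 against 30.6 for *Jun*. In young KO 1 it was 58.6, 53.2, 86.1 and 73.0 against 68.9 for *Fosb*.

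**Figure D4:**
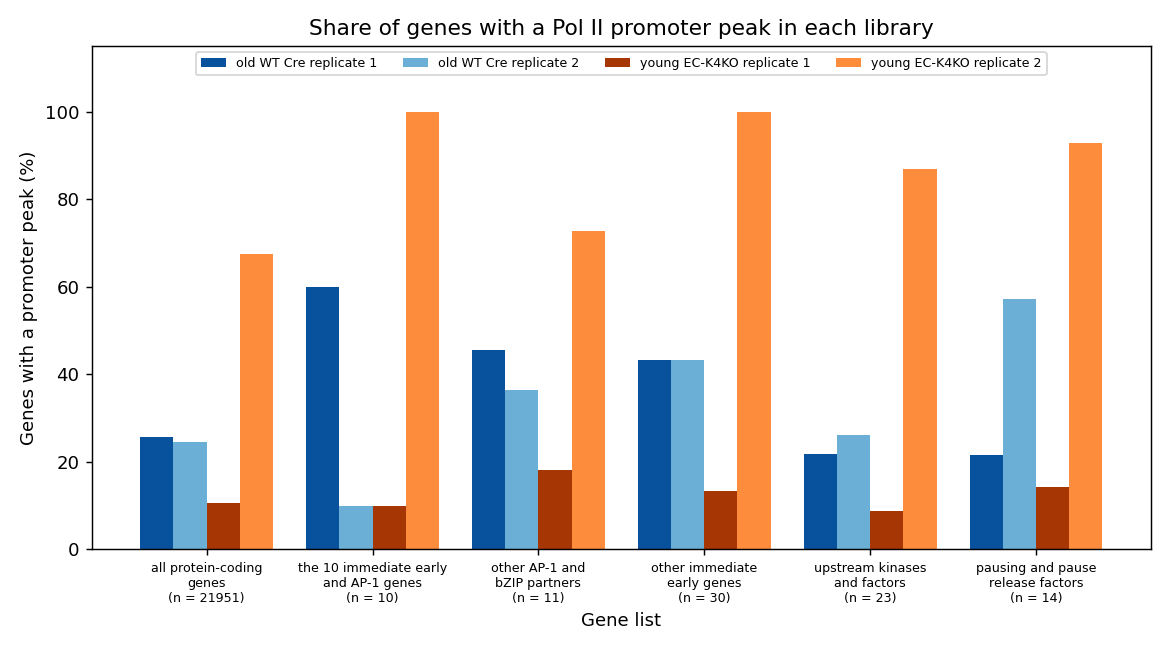
Share of genes with a Pol II promoter peak (%, axis from 0) in each of the 4 libraries, for all 21951 protein-coding genes, the 10 genes and 4 related lists, with the number of genes under each list. In young KO 2 the share is 100% for the 10 genes and for the 30 other immediate early genes, and in old WT 2 it is 10% and 43.3%.

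From these lists 3 genes had a promoter peak in all 4 libraries, all of them early genes. *Nr4a2*, the sister of *Nr4a1*, had 0.426 and 0.838 FPM in the old WT libraries and 0.426 and 0.881 in the young KO libraries, so the groups overlapped. *Dusp6*, a phosphatase of ERK, had 0.396 and 0.473 against 0.568 and 1.28. *Rhob*, a stress-induced small GTPase, had 0.335 and 0.364 against 0.397 and 2.11. On this scale both young KO values exceeded both old WT values at *Dusp6* and *Rhob*, as they did at 19.5% of the 487 genes with a promoter peak in all 4 libraries. The reverse order held at 2.46% of the 487. With the tallest stack left out of each total, the *Rhob* groups overlapped (0.392 and 0.430 against 0.411 and 2.15) and those of *Dusp6* did not (0.463 and 0.559 against 0.588 and 1.30). There, 10.3% of the 487 were higher in both young KO libraries and 3.08% were lower in both. Relative to each library's median over genes with a promoter peak, *Rhob* overlapped again, *Dusp6* stayed higher in both young KO libraries and *Nr4a2* was lower in both, against 16.0% of the 487 genes that were higher in both and 18.3% that were lower. The pattern of *Fosb*, a promoter peak in both young KO libraries and in neither old WT library, was shared by *Klf4* (0.426 and 0.881 FPM), the targeted gene, and by *Mapk14* (0.483 and 1.98 FPM), which encodes the stress kinase p38α, and it was found at 3.12% of all genes. A peak at *Klf4* does not measure its transcript. The place of these peaks relative to the floxed part of the gene was not examined, so the genotype label was not checked. Among the marker genes *Abcb1a*, a barrier efflux pump, had the reverse pattern, with 0.213 and 0.656 FPM in the old WT libraries, a pattern of 0.784% of all genes.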

How the data were processed

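Pol II ChIP-seq was analysed in 4 libraries of sorted brain ECs. The authors trimmed reads (TrimGalore) and mapped them with Bowtie2 on mm10. Their methods describe removal of duplicates with Picard and SAMtools. Per the file headers they called peaks in each library with MACS 2.2.7.1 in paired-end mode at a q of 0.01, keeping all duplicates found in the input and with no control. Whether duplicates had been removed from that input cannot be seen in the tables, and 1 summit held up to 15.3% of a library's fragments. Copies of 1 fragment would raise pileups as well as the totals they are divided by. The deposited tables give, per peak, the pileup at the summit (a coverage signal, in fragments), the fold enrichment (a ratio over local background) and −log10 of the p-value and q-value. None is normalized between libraries.

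Peaks were placed on the GENCODE M21 basic gene models of GRCm38, the build of the files, with Python 3.11.15, numpy 2.4.6, pandas 2.3.3, scipy 1.17.1 and matplotlib 3.10.9, by an overlap of at least 1 bp. A peak was counted in the promoter zone first, then the body, then after the end. Pileups were divided by the library's fragments and multiplied by 1000000, and percentiles average ties. Regional background is the pileup plus 1 over the fold enrichment, minus 1, relative to the lowest such value in the library, which was 4.33, 1.68, 2.14 and 1.30 fragments in old WT 1, old WT 2, young KO 1 and young KO 2. Simulated peaks gave 400 of 400 planted zones. Intervals for single pileups were not computed, since duplicates would make fragments non-independent.

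The named genes are the 10 members and, from the related lists, genes with a promoter peak in all 4 libraries or in both of 1 group and neither of the other, plus *Klf4*. Other genes were named after their values were seen. The members and lists were chosen with earlier results of these data known. The counts of TSS bases under a peak, summits on both sides of a TSS and regional background were chosen after seeing the values, as were the RefSeq gene models, the other scalings of pileup and the all-library count without each replicate. The alternatives tried were q of at most 1e-05, fold enrichment of at least 4, lists cut to the strongest 35638 peaks, summits in place of peaks, the outermost TSS, other windows and distances, and leaving out each replicate. Promoter sequences are from RefSeq, GRCm38.p6.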

Additional observations from a re-analysis of the deposited data

How the results depend on the processing

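At a q of at most 1e-05, promoter counts in old WT 1, old WT 2 and young KO 1 became 1, 0 and 0, against 15.1%, 13.4% and 3.34% of all genes. Here and below, shares of all genes are given for promoter peaks in single libraries alone. The body count of young KO 1 became 0, and the downstream counts of old WT 2 and young KO 2 became 0 and 3. For promoters, 0 genes of the 10 remained in both libraries of either group. With a fold enrichment of at least 4, the promoter count was 1 in old WT 1 and 0 in young KO 1, against 11.7% and 6.55% of all genes. That left 0 in both young KO libraries. Body counts were 0 and 3 in the young KO libraries, and downstream counts were 0 in old WT 2 and 3 in young KO 2. With lists of 35638 peaks each, old WT 1 had 1 promoter (*Jun*), against 11.8% of all genes. Young KO 2 then had 6 promoters, 2 bodies and 0 downstream zones, where 27.7% of all genes had a promoter peak. A TSS window of 500 bp gave 3 and 0 promoters in the old WT libraries, against 18.3% and 19.9% of all genes, and 0 in both. One of 3000 bp gave 3 in old WT 2, against 28.4% of all genes, and 2 in both old WT libraries. Looking 2 kb past the end gave 2 downstream zones in young KO 2, and 10 kb gave 3, 3 and 8 in the old WT libraries and young KO 2. RefSeq models gave 0 bodies in young KO 1. Leaving out each replicate, the count in both libraries ranged from 1 to 6 for old WT (6 without replicate 2) and from 1 to 10 for young KO (10 without replicate 1), and that in all libraries from 0 to 1 (*Jun* without young KO 1). The other 96 values stayed within 1.5 times. The promoter count of young KO 2 stayed at 9 or 10 in every setting but equal lists. The share of all genes in that library ran from 56.3% (500 bp window) to 77% (3000 bp window) in these settings. With RefSeq models that share was not taken. Other settings for differences in height were not run, since no gene of the 10 had a promoter peak in all 4 libraries. No paired analysis was possible because no gene of the 10 had values for more than 1 pair of same-numbered libraries. A zone with no called peak does not show that Pol II was absent, since the smallest pileups called were 7 to 13 fragments. The yield of peaks did not follow depth, with the most peaks, 235591, in the library of fewest fragments, 22705175, and the cause was not tested.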
